A study of Homo sapiens with 4 samples.

Results

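TRIB1, TRIB2 and TRIB3 are the members of the Tribbles family of pseudokinases. They were chosen by gene symbol, after their measured values in these libraries were known, and they make up 3 of the 22637 genes in the deposited table. The series holds RNA-seq of 4 human prostate cancer lines, each sequenced as a single library. LNCaP is an androgen-sensitive line from a lymph node metastasis of prostatic adenocarcinoma, and C4-2B is its castration-resistant derivative. LN-OlapR and 2B-OlapR are the olaparib-resistant sublines of LNCaP and C4-2B, made by long culture in rising doses of olaparib, an inhibitor of the DNA repair enzyme PARP. Per the study's methods the resistant lines were kept in medium with olaparib between experiments. The labels call all lines untreated, and the series' design text says that cells were plated without a selection agent before RNA was taken, so past selection and recent withdrawal of the drug cannot be told apart. LN-OlapR over LNCaP is called the LN pair here, and 2B-OlapR over C4-2B the 2B pair. Each resistant line is a single selected culture, so differences between pairs, between cultures and between libraries cannot be told apart.

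Tribbles proteins have the fold of a protein kinase but little or no catalytic activity. They act as adaptors: their C-terminal tail binds the ubiquitin ligase COP1, and the kinase-like domain holds a substrate, best known for the transcription factor C/EBPα, which is then ubiquitinated and degraded. The same tail binds MAP kinase kinases, and TRIB2 and TRIB3 have been linked to the kinase AKT and, for TRIB2, to repression of FOXO factors. TRIB3 is also a target gene of ATF4, the transcription factor of the integrated stress response, and TRIB1 is best known for its part in myeloid leukemia and in blood lipid levels.

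TRIB2 (ENSG00000071575.12) lies on the plus strand of chromosome 2 at positions 12716889 to 12742734 of GRCh38, with 3 exons in its longest coding transcript, per the GENCODE 29 annotation. TRIB3 (ENSG00000101255.12) lies on the plus strand of chromosome 20 at positions 362835 to 397559, with 4 exons in its longest coding transcript. Their RefSeq promoter windows, which hold 250 bases before the start site and 50 after it, are shown because TRIB2 varied most and TRIB3 least between the lines, and because TRIB3 is read below against other targets of ATF4. Both are on the plus strand of GRCh38.p14, and capitals mark the only motif match. The TRIB2 window is chr2:12716686-12716985, and the TRIB3 window, the first of its RefSeq windows by position, is chr20:381045-381344. The GENCODE 29 start of TRIB3 at 362835 lies outside this window and was not searched for motifs.
TRIB2: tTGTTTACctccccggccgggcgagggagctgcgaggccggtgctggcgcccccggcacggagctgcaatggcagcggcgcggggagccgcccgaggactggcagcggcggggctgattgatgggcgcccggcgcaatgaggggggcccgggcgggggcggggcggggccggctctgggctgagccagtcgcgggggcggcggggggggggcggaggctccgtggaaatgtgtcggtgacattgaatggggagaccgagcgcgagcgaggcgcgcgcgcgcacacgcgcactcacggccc
TRIB3: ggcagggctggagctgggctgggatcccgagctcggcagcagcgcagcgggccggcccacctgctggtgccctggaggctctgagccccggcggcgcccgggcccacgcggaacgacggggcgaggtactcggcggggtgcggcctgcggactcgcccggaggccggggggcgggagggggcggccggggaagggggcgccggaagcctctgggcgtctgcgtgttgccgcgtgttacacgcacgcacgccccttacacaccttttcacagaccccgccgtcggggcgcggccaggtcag

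Both windows are rich in G and C. The TRIB2 window is 77.3% G or C and holds 42 CG dinucleotides, more than 94.2% of the 35116 promoter windows of the same length. The TRIB3 window is 77.0% G or C and holds 38 CG dinucleotides, more than 90.1% of all windows, against a median of 14. A set of 6 short motifs, picked after the windows had been seen, was searched on both strands. TRIB2 holds 1 match of the forkhead motif TGTTTAC, which begins 249 bases before the start site, and 3.42% of all windows hold that motif. Neither window holds the ATF4-C/EBP composite TGATGNAAN (in 3.61% of all windows), the cAMP response element TGACGTCA (1.85%), the AP-1 motif TGANTCA (7.71%, which overlaps no other motif here), CCAAT (34.6%) or TATAAA (11.5%). These are matches of letters and not evidence of binding.

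Reads of the members should be countable with little ambiguity. None of the 4634 stretches of 50 bases in the TRIB2 transcripts occurs in the transcript of another gene, and 3 of the 3411 stretches in TRIB3 do (0.0880%). No stretch is shared between family members. The microRNA gene MIR3125 lies inside TRIB2 on the same strand.

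Library totals ranged from 19950537 counts in C4-2B to 26394267 in LNCaP, and levels are given as normalized CPM, counts scaled to a fixed total (CPM) after adjusting for the composition of each library. All 9 luminal prostate markers were above 1 normalized CPM in every line, with summed levels from 3244 in LNCaP to 6532 in LN-OlapR. KLK3, which encodes PSA, was at 53.1 normalized CPM in LNCaP and at 1870.1 to 2685 in the other lines. Of the markers of other cell types, 1 of 3 basal, 2 of 7 neuroendocrine, 2 of 4 fibroblast, 1 of 3 immune and 1 of 3 endothelial genes had values, and none of those sums exceeded 16.3 normalized CPM. The neuroendocrine sum lay between 2.49 and 3.43. Intervals here are at the 95% level and cover counting error only.

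TRIB2 was the member that separated the lines. LNCaP and LN-OlapR both had 0 counts of it, C4-2B had 48 and its resistant subline 2B-OlapR had 5219. The limit of 3 counts stands for 0.112 normalized CPM in LNCaP and 0.129 in LN-OlapR. The counting intervals of the 0 counts reached slightly higher, to 0.143 and 0.165. The level was 2.35 normalized CPM in C4-2B (interval 1.77 to 3.11) and 252 in 2B-OlapR (245 to 259). So TRIB2 was not detected in either LN line and was low in C4-2B, and in 2B-OlapR its normalized CPM, not corrected for length, was above that of 97.1% of all genes.

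Within the 2B pair TRIB2 was 106.3-fold higher in the resistant line (interval 80.1 to 141.0), a log2 ratio of 6.73. That ratio ranked 14 of the 15527 genes analyzed, and 19 genes of the pair were at least 64-fold higher. No fold can be given for the LN pair, since both lines were at 0. Set against the limit of 3 counts in LNCaP, C4-2B was 21.0-fold higher (15.9 to 27.9 from the counting error of C4-2B). Set against the same limit in LN-OlapR, 2B-OlapR was 1958-fold higher (1906 to 2012 from the counting error of 2B-OlapR). These folds hold the limit fixed and are not strict lower bounds. Among the 15539 genes analyzed between the resistant lines TRIB2 ranked 1. That rank rests on the pseudocount, since the denominator was 0.

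Few genes at the limit in both LN lines were well expressed in 2B-OlapR. In all, 848 genes had at most 3 counts in LNCaP and in LN-OlapR, and 559 of them had more than 3 counts in C4-2B. Every gene in the deposited table sums to at least 10 over the 4 libraries. A gene this low in both LN lines is therefore listed only through its counts in C4-2B or 2B-OlapR, so these numbers are a description. At 10 normalized CPM or more in 2B-OlapR were 13 of the 848, and TRIB2 was the highest of these by normalized CPM. LPL, which encodes lipoprotein lipase, followed at 198.2 normalized CPM, and the carbonic anhydrase genes CA1 and CA2 at 88.7 and 87.1. LPL already had 503 counts in C4-2B, whereas CA1 had 4 and CA2 had 2.

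**Figure D1:**
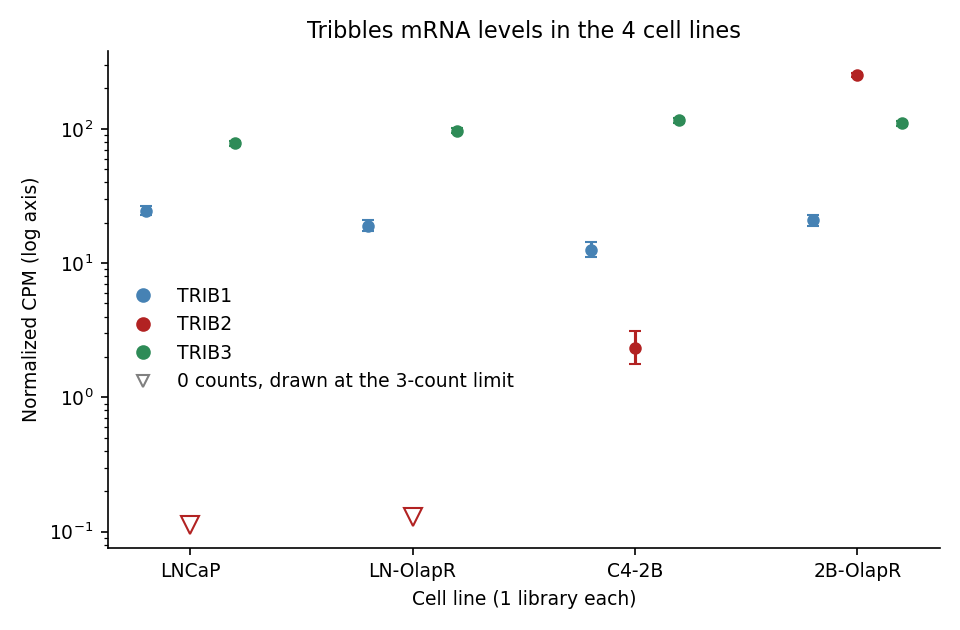
Level of each Tribbles gene as normalized CPM on a log axis, by cell line, with 1 library each and bars for 95% counting intervals. Open triangles mark TRIB2 at 0 counts, drawn at the limit of 3 counts. TRIB1 and TRIB3 stay between 12.6 and 116 in all lines, while TRIB2 goes from not detected to 252.

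Levels of different genes can be compared only per length. Per kilobase of exon, TRIB3 was the most abundant member in LNCaP, LN-OlapR and C4-2B, at 22.8, 28.3 and 33.7 normalized CPM per kb. In 2B-OlapR TRIB3 was at 32.0 and TRIB2 at 54.9 normalized CPM per kb, while TRIB2 had been at 0.511 in C4-2B. TRIB1 was at 5.93, 4.57, 3.05 and 5.05 normalized CPM per kb in LNCaP, LN-OlapR, C4-2B and 2B-OlapR.

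As a share of the summed Tribbles mRNA per length, TRIB3 made up 79.4%, 86.1%, 90.4% and 34.8% in LNCaP, LN-OlapR, C4-2B and 2B-OlapR, respectively. TRIB2 went from 1.37% in C4-2B to 59.7% in its resistant subline. With the length of the longest coding transcript in place of all exons, TRIB2 made up 53.6% and TRIB3 41.0% in 2B-OlapR, so the order held under both lengths.

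**Figure D2:**
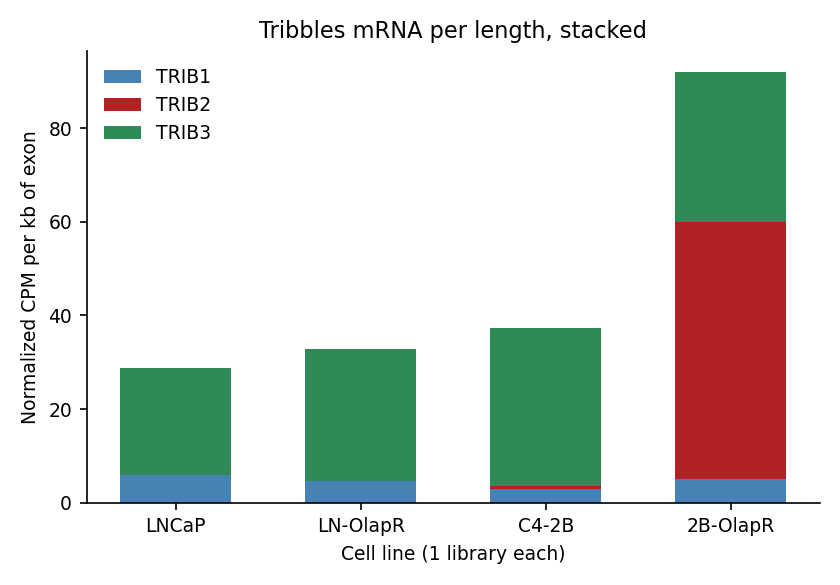
Stacked bars of the Tribbles levels per length (normalized CPM per kb of exon) in each cell line. TRIB3 fills most of the bar in LNCaP, LN-OlapR and C4-2B, and TRIB2 adds 54.9 in 2B-OlapR, where it is 59.7% of the sum.

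TRIB1 (ENSG00000173334.4) lies on the plus strand of chromosome 8 at positions 125430321 to 125438405 of GRCh38, with 3 exons in its longest coding transcript, and its transcripts share none of their 4135 stretches of 50 bases with another gene. LNCaP had 660 counts of TRIB1 and LN-OlapR 441, while C4-2B had 258 and 2B-OlapR 433. The levels were 24.6 (interval 22.7 to 26.5), 18.9 (17.2 to 20.8), 12.6 (11.2 to 14.2) and 20.9 (19.0 to 23.0) normalized CPM in the order LNCaP, LN-OlapR, C4-2B, 2B-OlapR. C4-2B stood lowest and apart from the other lines. The intervals of neighbours overlapped for LNCaP and 2B-OlapR and for 2B-OlapR and LN-OlapR.

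The resistant line was lower than its parental line in the LN pair and higher in the 2B pair. The log2 ratio of TRIB1 was -0.38 in the LN pair (interval -0.55 to -0.20), 1.30-fold lower in LN-OlapR. For the 2B pair it was 0.73 (0.51 to 0.95), 1.66-fold higher in 2B-OlapR. C4-2B was 1.94-fold lower than LNCaP, a log2 ratio of -0.96 (-1.17 to -0.75). Between the resistant lines the log2 ratio was 0.14 (-0.05 to 0.34), within counting error, and 0.20 (0.01 to 0.39) when libraries were scaled by total counts. The parental lines thus lay further apart than their resistant sublines.

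TRIB3 was detected in every line and varied least of the members. LNCaP had 2105 counts of it and LN-OlapR 2265, while C4-2B had 2368 and 2B-OlapR 2274. The levels were 78.3 (interval 75.0 to 81.7), 97.1 (93.2 to 101.2), 115.7 (111.2 to 120.5) and 109.7 (105.3 to 114.3) normalized CPM in the same order. LNCaP was lowest and LN-OlapR next, each apart from its neighbours, while the intervals of 2B-OlapR and C4-2B overlapped.

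TRIB3 was 1.24-fold above LNCaP in LN-OlapR, a log2 ratio of 0.31 (0.22 to 0.40). In the 2B pair the log2 ratio was -0.08 (-0.16 to 0.01), and with scaling by total counts it was -0.12 (-0.20 to -0.04). C4-2B was 1.48-fold higher than LNCaP, with a log2 ratio of 0.56 (0.48 to 0.65). Between the resistant lines the log2 ratio was 0.18 (0.09 to 0.26).

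Of the members, TRIB2 alone passed a 2-fold difference, and did so in the 3 comparisons that involve C4-2B or 2B-OlapR. Of the 2 members that passed the filter in the LN pair, 0 were 2-fold higher, where 4.64% of all genes were, and 0 were 2-fold lower, where 4.83% of all genes were. The filter asked for 1 normalized CPM or more on average over both libraries, and TRIB2 did not reach it there. In the 2B pair 1 of 3 members was 2-fold higher against 4.42% of genes, and 0 were 2-fold lower against 5.65%. For C4-2B over LNCaP these were 1 of 3 against 8.00% higher and 0 against 7.18% lower. For 2B-OlapR over LN-OlapR they were 1 of 3 against 8.93% higher and 0 against 9.45% lower. In C4-2B over LNCaP and in 2B-OlapR over LN-OlapR, TRIB2 had 0 counts in the LN line. It passed the filter there only through the other line. The members were chosen with these ratios known, so the counts are a description.

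**Figure D3:**
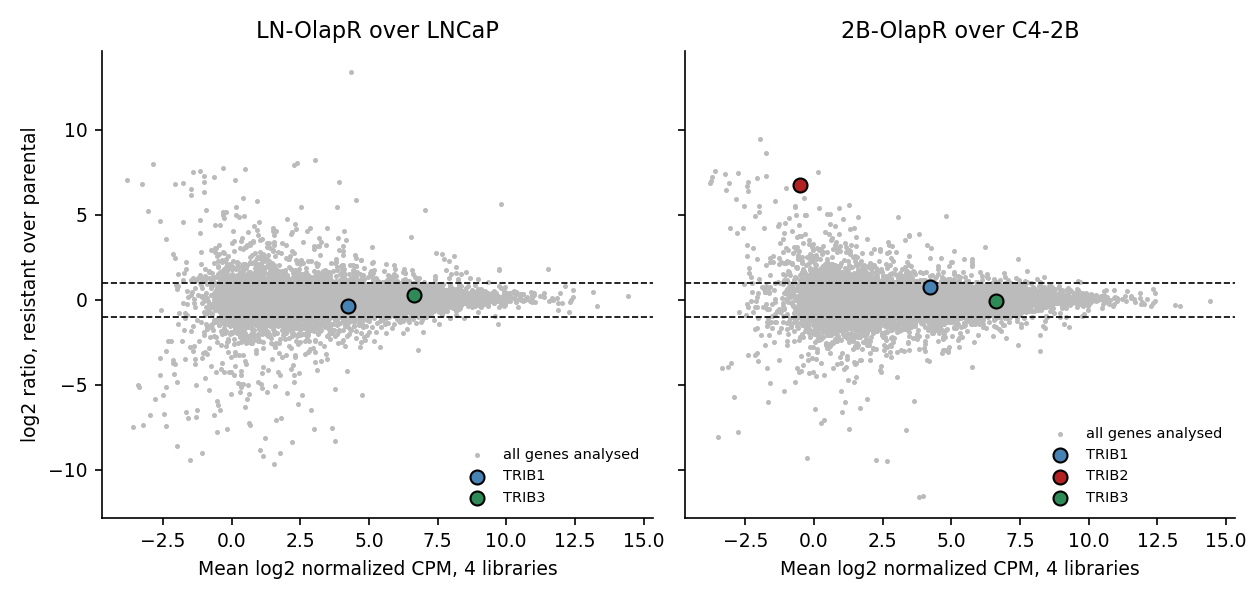
Log2 ratio of the resistant over the parental line (vertical) against the mean log2 normalized CPM over the 4 libraries (horizontal), for all genes analyzed (grey) and the Tribbles genes (colored), in the LN pair (left) and the 2B pair (right). Dashed lines mark 2-fold. TRIB2, at 6.73, lies near the upper edge of the 2B pair, and TRIB1 and TRIB3 lie inside the dashed lines in both pairs.

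The ligase that Tribbles proteins serve was expressed in all lines, and none of its genes differed by 2-fold within a pair. The COP1 ligase list held 8 genes: COP1, its partners DET1, DDB1, DDA1, CUL4A, CUL4B and RBX1, and STK40, a related pseudokinase that also binds COP1. All 8 passed the filter. In the 2B pair 6 were higher and 2 lower, 0 by 2-fold, with a median log2 ratio of 0.07 against 0.00 for all genes. COP1 itself was at 27.5, 28.3, 26.4 and 21.3 normalized CPM, in the line order used above, and its log2 ratio of -0.31 (-0.49 to -0.13) was the lowest of the list in the 2B pair. DDB1, an adaptor of CUL4 ligases, was the highest there at 0.33. Of the LN pair, 6 were also higher and 2 lower, 0 by 2-fold, from STK40 at 0.30 to RBX1 at -0.17. Scaling by total counts, which moved the median of all genes in the LN pair to -0.09, gave 4 higher and 4 lower there, and 5 higher and 3 lower in the 2B pair. Of all genes 49.6% were higher in the LN pair, and 7761 of 15527 in the 2B pair, and the shares past 2-fold given above also stand beside this and the following lists.

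The C/EBP factors, the substrates that Tribbles proteins are best known for, are set by protein stability as well as by mRNA, and only mRNA was measured. Of 5 genes, 4 passed the filter in each pair, and 0 of them were 2-fold different in either pair, with CEBPD in the 2B pair passing 2-fold lower when scaled by total counts. CEBPA was at 36.6, 23.7, 48.3 and 59.4 normalized CPM, with log2 ratios of -0.63 (-0.78 to -0.48) in the LN pair and 0.30 (0.18 to 0.42) in the 2B pair. TRIB1 had the same sign as CEBPA in both pairs, at -0.38 in the LN pair and 0.73 in the 2B pair. In C4-2B over LNCaP their signs were opposite, with CEBPA at 0.40 and TRIB1 at -0.96. CEBPB and CEBPD had log2 ratios of -0.40 and -0.99 in the 2B pair, and CEBPB had 0.74 in the LN pair. Both were more than 2-fold higher in C4-2B than in LNCaP, with CEBPD at 1.84 and CEBPB at 1.61. Of 6 other transcription factors degraded through COP1, 3 passed the filter in the LN pair and 2 in the 2B pair. JUN was at 62.1, 60.2, 40.6 and 62.3 normalized CPM, with log2 ratios of -0.04 in the LN pair and 0.62 (0.49 to 0.74) in the 2B pair. ETS1 had 45 counts in LNCaP and 14 in LN-OlapR, a log2 ratio of -1.45 (-2.30 to -0.59).

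Of the 7 AKT and MAP kinase kinase genes listed, 6 passed the filter, and 0 were 2-fold different in either pair, where 4.42% of all genes were 2-fold higher and 5.65% 2-fold lower in the 2B pair. In the 2B pair 4 were higher and 2 lower, with 4 intervals above 0 and 1 below, and the median log2 ratio was 0.24, from MAP2K2 at 0.35 to MAP2K4 at -0.07. The LN pair had 5 higher and 1 lower, with a median of 0.15, from MAP2K7 at 0.33 to MAP2K4 at -0.19.

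The FOXO genes, whose products TRIB2 has been described to repress in melanoma, all had log2 ratios below 0 in the 2B pair. FOXO1 was at 10.9, 13.0, 7.18 and 3.72 normalized CPM in the 4 lines, a log2 ratio of -0.95 (-1.34 to -0.55) in the 2B pair. FOXO4 had a log2 ratio of -0.74 (-1.02 to -0.46) there, and FOXO3 of -0.07 (-0.19 to 0.04), within counting error. In the LN pair, where TRIB2 was not detected, the log2 ratios were 0.26 for FOXO1, -0.17 for FOXO3 and -0.31 for FOXO4. For C4-2B over LNCaP they were -0.59 for FOXO1, -0.99 for FOXO3 and 0.34 for FOXO4. A link between TRIB2 and these mRNA levels was not tested, and FOXO proteins were not measured. None of the 3 was 2-fold different in either pair.

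Target genes of the ERK pathway, which lies downstream of the kinases MEK1 and MEK2 (MAP2K1 and MAP2K2), differed in both directions. Of 18 genes, 12 passed the filter in the 2B pair, with a median log2 ratio of -0.78. Of these, 2 were 2-fold higher, DUSP5 at a log2 ratio of 2.76 and EGR1 at 1.22, against 4.42% of all genes. There were 6 that were 2-fold lower, against 5.65% of all genes: DUSP4 at -2.77, PHLDA1 at -2.21, SPRY4 at -2.06, SPRED1 at -1.14, EPHA2 at -1.13 and FOS. FOS had 41 counts in the parental and 3 in the resistant line, so its ratio of -3.59 (-5.16 to -2.01) is imprecise. FOS and SPRY4 passed the filter only through the parental line. DUSP4 and DUSP5 encode phosphatases that switch ERK off, and in the 2B pair they went in opposite directions. The LN pair had 9 that passed the filter, with SPRY4 2-fold higher at 1.64, PHLDA1 2-fold lower at -2.45 and DUSP5 2-fold lower at -1.06.

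ATF4, an activator of TRIB3, was lower in both resistant lines. It was at 457, 364, 499 and 355 normalized CPM, with log2 ratios of -0.33 (-0.37 to -0.29) in the LN pair and -0.49 (-0.53 to -0.45) in the 2B pair. ATF4 is controlled mainly at translation, so its mRNA need not follow its activity. DDIT3, which encodes CHOP, was at log2 ratios of 0.87 and -0.42 in the LN and 2B pairs. Among 10 genes of the stress response, 1 was 2-fold different in the 2B pair, NUPR1, a stress-induced chromatin protein, at -1.28. The highest there was PPP1R15B at 0.68, which encodes a subunit of the eIF2α phosphatase. For the LN pair 0 of 10 were 2-fold different, from DDIT3 at 0.87 to EIF2AK1, the heme-regulated eIF2α kinase, at -0.44.

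TRIB3 differed by no more than counting error within the 2B pair, while most other ATF4 targets listed were lower in the resistant line. Of 32 targets, 31 passed the filter in the 2B pair, where 27 were lower and 4 higher, 10 lower by 2-fold and 0 higher, with a median log2 ratio of -0.57 against 0.00 for all genes. Of all 15527 genes 7761 were higher, 5.65% were 2-fold lower and 4.42% 2-fold higher. The ratio of TRIB3 lay above 27 of the 31, and the 4 above it were SLC3A2 at 0.15, ATF3 at 0.14, ATF5 at 0.05 and SARS1 at 0.05. The list was drawn up with earlier results of these data known.

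The targets that were 2-fold lower in 2B-OlapR serve several branches of the response. JDP2, an AP-1 repressor, was the lowest, at 17.7, 8.10, 19.3 and 2.46 normalized CPM in the 4 lines, a log2 ratio of -2.96 (-3.37 to -2.54) in the 2B pair. GDF15, a secreted stress cytokine, was at -2.13, and DDIT4 and SESN2, which restrain mTORC1, were at -1.84 and -1.38. CHAC1, which breaks down glutathione, was at -1.65, and CTH, of cysteine synthesis, at -1.40. The mitochondrial folate enzyme ALDH1L2 was at -1.42, the mitochondrial enzyme PCK2 at -1.08, the alanyl-tRNA synthetase AARS1 at -1.24 and the lipoprotein receptor VLDLR at -1.03.

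Of 30 targets that passed the filter in the LN pair, 15 were higher and 15 lower, with a median log2 ratio of 0.01. Scaling by total counts gave 10 higher and 20 lower, with a median of -0.08, where 40.5% of all genes were higher and their median was -0.09. GDF15 was the highest, at 40.7 normalized CPM in LNCaP and 532 in LN-OlapR, a log2 ratio of 3.71 (3.62 to 3.79). JDP2 was the lowest at -1.12 (-1.37 to -0.88). TRIB3 at 0.31 lay above 24 of the 30.

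**Figure D4:**
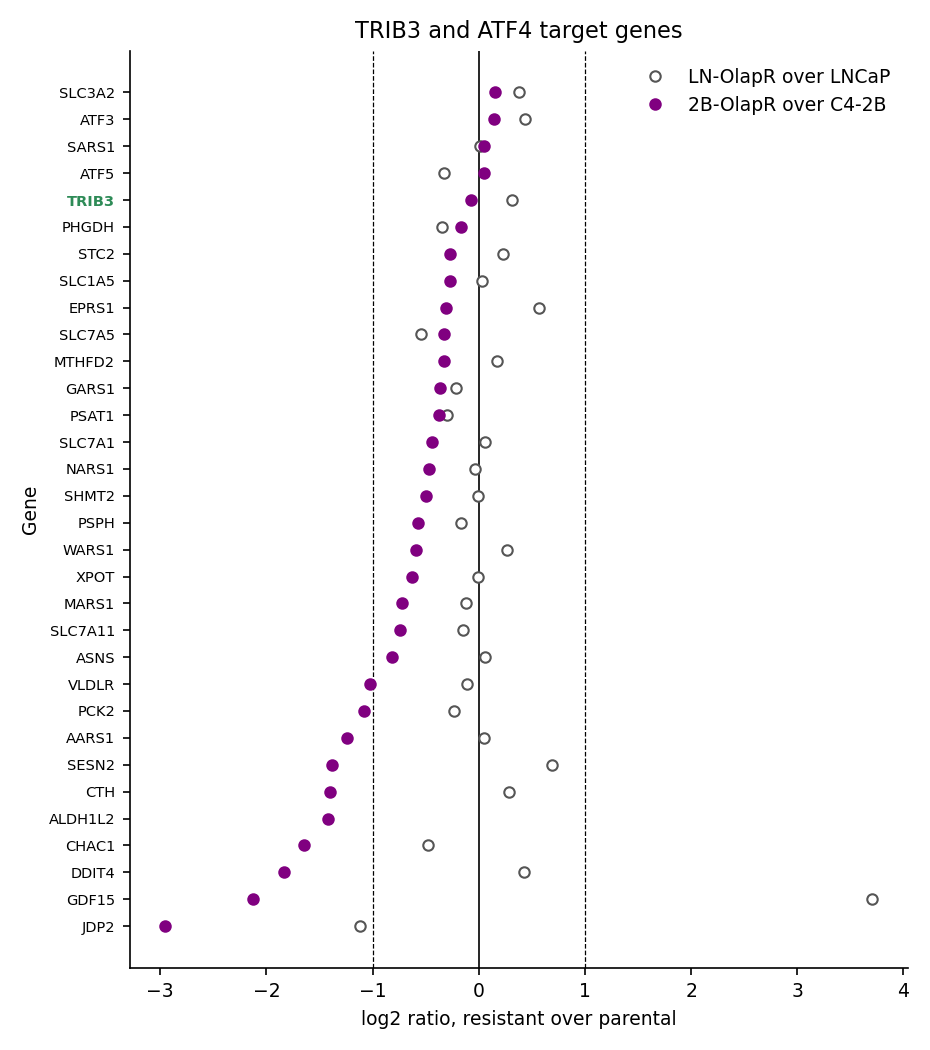
Log2 ratio of the resistant over the parental line for TRIB3 and the ATF4 targets that passed the filter, ordered by the 2B pair (filled circles), with the LN pair as open circles and dashed lines at 2-fold. TRIB3 at -0.08 stands below 4 targets in the 2B pair, and the targets below it reach -2.96.

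Of the 6 nearest genes around TRIB2 that passed the filter, 3 on each side, 2 were 2-fold higher in 2B-OlapR, against 4.42% of all genes. They were the nearest analyzed gene on each side, and whether the region changed as a whole was not tested. LPIN1, a phosphatidate phosphatase gene at -1039 kb, was at 43.9 normalized CPM in the parental and 108.1 in the resistant line, a log2 ratio of 1.30 (1.19 to 1.41). LRATD1, at 1916 kb, was at 0.586 and 4.63 normalized CPM, a log2 ratio of 2.93 (2.08 to 3.78). It passed the filter only through 2B-OlapR, so its place among the 6 was partly set by its high level there. The other 4 neighbours, GREB1, E2F6, NBAS and DDX1, lay between -0.63 and 0.35. In the LN pair LRATD1 did not pass the filter and CYRIA entered the 6 in its place. Of those 6 neighbours of TRIB2, 0 were 2-fold different. LPIN1 was lower in C4-2B than in LNCaP at -1.02, the opposite direction to TRIB2.

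Of the 6 neighbours of TRIB1, 0 were 2-fold different in the 2B pair, with log2 ratios from -0.43 for PCAT1 to 0.74 for SQLE, a cholesterol synthesis enzyme. In LN-OlapR over LNCaP the long noncoding RNAs PCAT1 and CASC19 were 2-fold higher, at 2.42 and 3.44, whereas TRIB1 was lower at -0.38. CASC19, at 0.744 normalized CPM in LNCaP and 8.27 in LN-OlapR, passed the filter only through LN-OlapR. It was not among the 6 neighbours in the 2B pair. Of the 6 neighbours of TRIB3, 0 were 2-fold different in either pair, and in the 2B pair they lay between -0.75 for NRSN2 and 0.65 for TBC1D20.

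The genes most like each member over the 4 libraries were found by the Euclidean distance between centered log2 levels, among the 10136 genes whose mean reached 10 normalized CPM. For TRIB1 the nearest were DHCR7 (distance 0.128), MBD5 (0.134), NT5DC1 (0.156), ROBO1 (0.156) and CRY2 (0.166). DHCR7, an enzyme of cholesterol synthesis, was at 232.8, 195.8, 128.0 and 194.6 normalized CPM in the 4 lines, lowest in C4-2B as TRIB1 was. For TRIB3 the nearest reported here were PSMG4 (0.0450), CLN3 (0.0464), DNAJB11 (0.0467) and TUFM (0.0501). DNAJB11, a chaperone of the endoplasmic reticulum, was at 98.3, 117.4, 145.2 and 134.4 normalized CPM in the same lines.

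For TRIB2 the nearest genes stood much further off, with CA1 at 2.82, LPL at 3.04, CA2 at 3.49, BRINP1 at 4.32 and BST2 at 4.83. These distances depend on the pseudocount where counts are 0. They cannot be compared directly with those of TRIB1 and TRIB3, since TRIB2 varied far more between the lines. The filter on the mean level also shaped this list. A gene near 0 in both LN lines could pass it only through a high level in C4-2B or 2B-OlapR. That the listed genes were high there, as TRIB2 was in 2B-OlapR, is thus partly set by the filter. BST2, an interferon-induced membrane protein, had 7 and 11 counts in the LN lines, 97 in the C4-2B line and 1835 in its resistant subline. With Pearson correlation as the measure, 0 of the 5 genes were shared for TRIB1, 0 for TRIB2 and 2 for TRIB3, so the named genes depend on the measure. The patterns rest on 4 points.

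**Figure D5:**
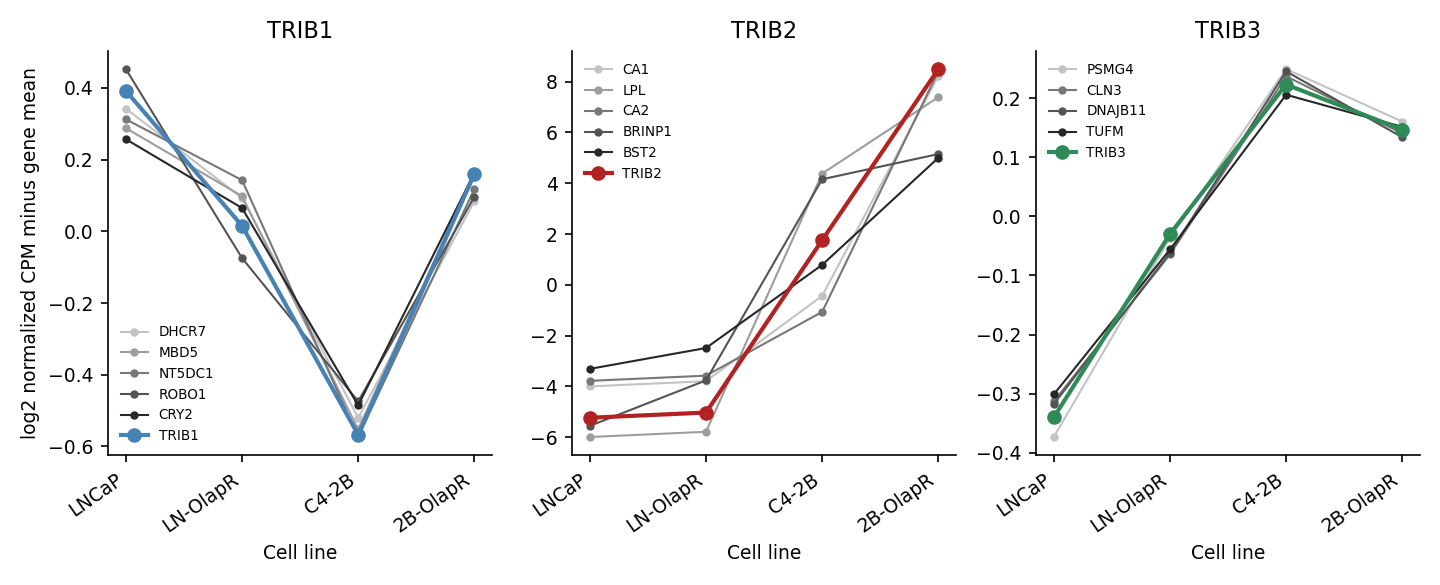
Log2 normalized CPM minus each gene's mean over the 4 cell lines, for each Tribbles gene (colored) and the genes most like it by distance that are named in the text (grey), in separate panels with separate vertical scales. TRIB1 and its nearest genes are lowest in C4-2B, TRIB3 and its nearest genes are lowest in LNCaP, and TRIB2 is highest in 2B-OlapR.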

How the data were processed

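A stranded kit was used to build 1 mRNA library per cell line from 100 ng of RNA. The series' design text gives 48 hours of plating without olaparib selection before harvest, and the study's methods give a longer time. The authors deposited estimated counts per gene, not scaled between libraries, and the submitters' processing notes name STAR, Partek and the builds GRCh38 and hg38. Versions, counting settings, use of strand and annotation are not given in the sources used here. The 22637 genes listed each reach a sum of 10 over all 4 libraries. Of the values, 46.2% were not whole, and they were rounded to whole numbers, although the design had assumed whole counts.

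Totals were 26394267 (LNCaP), 24278062 (LN-OlapR), 19950537 (C4-2B) and 20796946 (2B-OlapR). Libraries were scaled by TMM (edgeR 4.0.16, R 4.3.3), and further steps used Python 3.11.15 with pandas 2.3.3 and SciPy 1.17.1. Log2 ratios used a pseudocount of 0.5 counts, with normal 95% intervals from the counts, and levels have Wilson intervals. Both cover counting error only. Against a library at 0 counts, the limit was set at 3 counts. With 1 library per line no model was fitted and no p-value computed. The steps were tested on simulated data. A gene was analyzed in a comparison where its mean reached 1 normalized CPM. Alternatives were scaling by total counts, DESeq2 1.42.0 size factors or upper quartiles, a pseudocount of 2, filters of 0 and 10 normalized CPM, and no rounding.

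The members and the 8 gene lists were chosen with earlier results of these data known. Named genes are the members, the highest and lowest of each list and genes past 2-fold, the 3 nearest analyzed genes on each side of a member, and the 5 genes most like it, some of which are not reported here. Other genes of the lists, and LPL, CA1 and CA2 among the genes silent in both LN lines, were named after their values were seen. Positions come from GENCODE 29 on GRCh38, which holds 94.5% of the identifiers. Promoters come from RefSeq (GRCh38.p14), where 2 of 3 members matched.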

Additional observations from a re-analysis of the deposited data

Results flagged for a closer look

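Among the Tribbles genes, 2 had log2 ratios of opposite sign in the LN and 2B pairs, beyond counting error in both pairs for TRIB1 only. TRIB1 was lower in LN-OlapR than in LNCaP and higher in 2B-OlapR than in its parental line, and the log2 ratio of the 2B pair exceeded that of the LN pair by 1.10 (counting interval 0.82 to 1.39). TRIB3 was higher in LN-OlapR and lower in 2B-OlapR than in the parental line, with a difference of -0.39 (-0.51 to -0.27), although its ratio in the 2B pair was within counting error. With 1 library per line neither difference was tested against the spread between cultures.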

How the results depend on the processing

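Of 223 values recomputed under the alternatives, 201 stayed within their interval or within 1.5 times their count and 22 moved. For list medians this was a binomial interval of the median and not counting error. The C/EBP, FOXO and other COP1 substrate lists were too short for one, and the range of their genes was used. A median seldom leaves that range, so staying within it says little for those lists. For the members, 74 of 76 stayed and 0 changed direction. The filters only decide whether a member is reported and cannot alter its value, so those settings were no check on the members. Nor can the pseudocount alter the folds of TRIB2 against the limit of 3 counts. Of the list medians, 3 changed sign: the ATF4 targets in the LN pair (-0.08 with scaling by total counts), the FOXO genes in the LN pair (0.05 with the filter of 10 normalized CPM) and the other COP1 substrate factors, given below. The ATF4 and FOXO medians still count among the values that stayed. Against the limit of 3 counts, TRIB2 in 2B-OlapR over LN-OlapR was 2031-fold with scaling by total counts and 2021-fold with upper quartiles. Counts of 2-fold genes followed the filter by construction. Without a filter they came to 2237 (higher) and 2269 (lower) in the LN pair, 2255 and 2550 in the 2B pair, 3023 and 2794 for C4-2B over LNCaP, and 3222 and 3227 for 2B-OlapR over LN-OlapR. With a filter of 10 normalized CPM they were 196 and 192, 163 and 256, 424 and 348, and 482 and 558. The median of the other COP1 substrate factors in the 2B pair was 0.30 with the filter and -0.27 without it, since low genes then entered. With the filter of 10 normalized CPM no value for TRIB2 in C4-2B over LNCaP was obtained. Across the scalings the log2 ratio of TRIB1 ranged from -0.46 to -0.37 in the LN pair and from 0.69 to 0.75 in the 2B pair, that of TRIB3 from 0.23 to 0.32 and from -0.12 to -0.05, and that of TRIB2 from 6.69 to 6.76 in the 2B pair. No replicate could be left out, and no paired analysis was possible because each line has a single library. Depth limited TRIB2 in the LN lines, where a level under 3 counts could not be seen.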
